A study of Mus musculus with 27 samples.

Results

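PDGFRα-expressing cardiac fibroblasts of 14-week-old mice were compared with those of 4-week-old mice, over every gene that lies off chromosomes X and Y. Of the 22855 genes in the deposited counts, 21206 were placed on an autosome or the mitochondrial genome, and 17711 of these had enough reads to be tested. The 4-week group held 3 samples and the 14-week group 2, out of 12 fibroblast and 27 samples in the series. The series measured RNA in sorted fibroblasts and whole hearts of C57Bl/6 mice from birth to 1.5 years, and the labels name no transgene, deletion or treatment in any group used here. Fibroblasts were taken from digested ventricles by flow cytometry for the surface receptor PDGFRα, and the labels give neither the sex nor the number of the animals behind a sample. Replicates carry the numbers 1 to 3 at 4 weeks and 4 and 6 at 14 weeks, and the study's methods have the sets of fibroblasts come from different hearts. The p values below come from a fit of all 12 fibroblast samples. They rest on the spread between samples within every age, not on that of the 4- and 14-week samples alone.

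Cardiac fibroblasts make and maintain the matrix between heart muscle cells. They secrete procollagens, which are folded in the endoplasmic reticulum, cleaved outside the cell and crosslinked into fibrils, and they also release proteoglycans that bind those fibrils, elastic fibre proteins, proteases, complement proteins and growth factors. The mouse heart does most of its growing before adulthood, and the comparison of 4 with 14 weeks asks which secretory, growth and signalling genes differ once the animal is adult.

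Total counts in the 5 samples lay between 54615898 and 74267683, and genes of the mitochondrial genome took between 1.88% and 3.84% of them. Levels are read counts scaled to a common library size by the TMM method (CPM). Pdgfra, the sorted receptor, was at 1270.3, 1129.9 and 1139.5 CPM at 4 weeks and 1209 and 1367 CPM at 14 weeks, and the 20 fibroblast identity genes together took 7.02, 7.32 and 6.03% of all counts at 4 weeks and 6.75 and 7.01% at 14 weeks. Of these identity genes, Dpep1 (a surface dipeptidase) and Dcn rose, Thy1 (a surface glycoprotein) and Col1a1 fell, and the other 16 did not pass the test; without either 14-week sample neither fall was called. Xist, an RNA of the inactive X chromosome, was at 590, 379 and 413 CPM at 4 weeks and 0.0173 and 0.0701 CPM at 14 weeks, while the Y-linked Ddx3y was at 26.4, 24.8 and 50.8 CPM at 4 weeks and 74.9 and 83.3 CPM at 14 weeks. The 4-week samples thus held RNA from both an inactive X and a Y chromosome and the 14-week samples almost none of the former, so the sex of the animals and age cannot be told apart here. Markers of endothelial cells summed to 1481, 1429.8 and 3984 CPM at 4 weeks and 3451 and 2998 CPM at 14 weeks, with the third 4-week sample near the 14-week level. In such bulk samples, fewer cells of a type and less RNA per cell cannot be told apart.

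Of the 17711 genes, 317 were higher and 384 lower at 14 weeks by a quasi-likelihood test in edgeR, with Benjamini-Hochberg adjustment over all genes tested and a threshold of 0.05. These are 1.79% and 2.17% of the genes tested, 3.96% together, and the share of a gene list is read against them below. In all 701 genes the samples of the 2 ages did not overlap, which 34.8% of all genes tested also showed. The change was at least 2-fold for 186 of the higher and 212 of the lower genes. With a sample of the 14-week group left out, 88 genes were higher and 54 lower without replicate 4, and 70 and 49 without replicate 6. Without replicate 1 of 4 weeks the counts were 176 and 211. Called with any of the 5 samples left out were 62 of the higher and 32 of the lower genes. Of 94 called genes taken by the naming rule, 20 were called with each sample left out, and 13 in none of these 5 fits, which are mt-Co3, Cbr2, C3ar1, Nckap1l, Spp1, Efemp1, Pappa, Sgce, Ltbp2, Fstl1, Gas6, Hspa1a and Hspa1b.

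**Figure D1:**
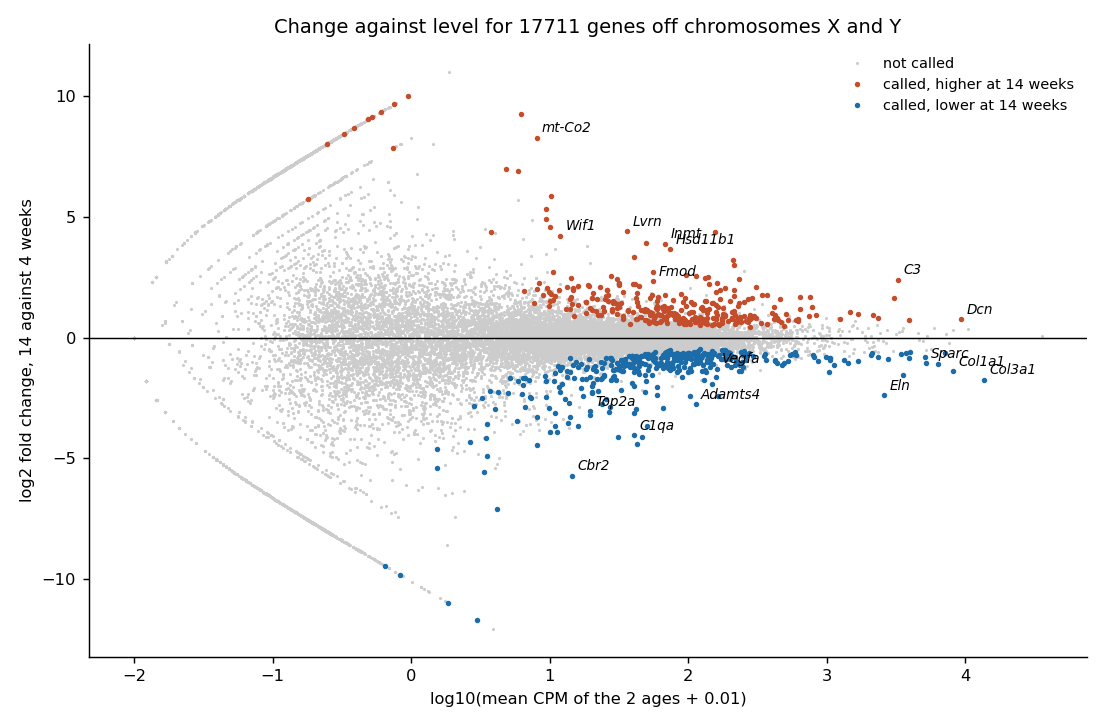
Fitted log2 fold change at 14 against 4 weeks (vertical) over the log10 mean CPM of the 2 ages (horizontal) for each of 17711 genes off chromosomes X and Y. Red points mark the 317 genes higher at 14 weeks, blue points the 384 lower and grey points the rest; named examples include C3 and Dcn among the higher and Eln and Col3a1 among the lower.

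The 14-week samples also stood apart from fibroblasts of the other ages. Of the 317 higher genes, 143 (45.1%) were above every one of the 10 samples of the other ages, against 5.47% of all genes tested, and 203 (52.9%) of the lower genes were below all of them, against 4.42%. Since the 4-week samples are among those 10, part of this is fixed by the call itself. The changes also followed base composition: among 9929 genes of at least 5 CPM, the median log2 fold change was 0.20 in the fifth of genes with the lowest GC content and -0.33 in the fifth with the highest. The median GC content of the longest transcript was 47.7% for higher genes, 56.2% for lower genes and 49.8% for all genes tested. Of the higher genes 33.8% shared at least 5% of their 65-base words with a transcript of another gene, against 5.03% of the lower genes and 13.6% of all. Among the genes of at least 5 CPM, the median log2 fold change was 0.40 in 130 genes with at least 50% of their words shared. It was -0.04 in 7459 genes with none shared. Any difference between the 2 ages in how libraries were made or counted cannot be told apart from age here. The part of base composition and shared sequence in the results was not tested. The calls were repeated with offsets for GC content and length, under which 249 genes were higher and 190 lower, 219 of the 317 and 170 of the 384 among them. Without genes of shared sequence, 206 of the 317 and 326 of the 384 were called.

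**Figure D2:**
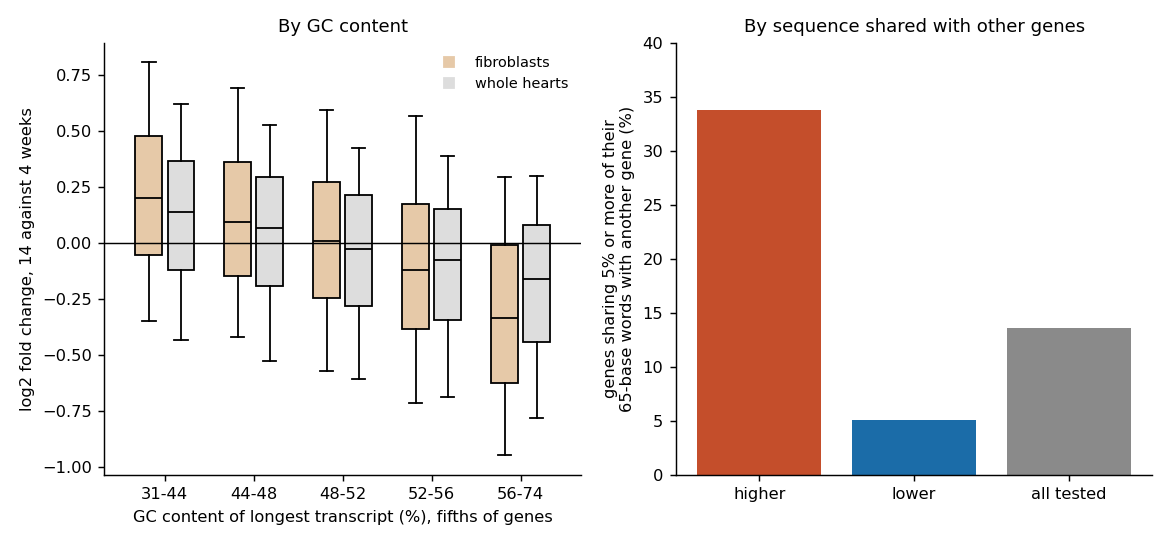
Left, log2 fold change at 14 against 4 weeks by 5 equal groups of GC content for genes of at least 5 CPM (line, median; box, quartiles; whiskers, 10th to 90th percentile) in fibroblasts and whole hearts; the fibroblast median falls from 0.20 to -0.33 and the heart median from 0.14 to -0.16. Right, the percent of genes that share at least 5% of their 65-base words with another gene, which is 33.8% of genes higher at 14 weeks, 5.03% of genes lower and 13.6% of all tested.

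The largest rises among protein-coding genes of at least 10 CPM included secreted and metabolic genes. Ifi205, an interferon-inducible nuclear protein, was at 8.39, 13.9 and 21.04 CPM at 4 weeks and 287 and 308 CPM at 14 weeks, and it rose by 4.36 ± 0.68 on the log2 scale (SE, adjusted p = 0.00444). Lvrn, a membrane aminopeptidase, was at 1.50, 4.22 and 3.95 CPM at 4 weeks and 62.9 and 75.0 CPM at 14 weeks, and it rose by 4.42 ± 0.50 on the log2 scale (SE, adjusted p = 0.000618). In both genes the samples of 14 weeks were well above those of 4 weeks. Inmt, a methyltransferase for small amines, was at 5.58, 10.8 and 9.53 CPM at 4 weeks and 114 and 142 CPM at 14 weeks, and it rose by 3.89 ± 0.29 on the log2 scale (SE, adjusted p = 4.04e-05). Hsd11b1, the enzyme that makes active glucocorticoid from its inert form, was at 7.12, 16.9 and 8.46 CPM at 4 weeks and 112 and 161 CPM at 14 weeks, and it rose by 3.66 ± 0.40 on the log2 scale (SE, adjusted p = 0.000492). Ccl11, the eosinophil chemokine eotaxin, and Wif1, a secreted Wnt inhibitor, complete the secreted genes of this set and are described with their lists.

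The other 4 of the 10 largest rises share sequence with other genes. Of the 65-base words of mt-Co2, mt-Co3 and mt-Atp6, which encode respiratory chain subunits on the mitochondrial genome, between 99.5% and 99.9% also occur in another transcript. mt-Co2 was at 0.0402, 0.0537 and 0.0541 CPM at 4 weeks and 19.4 and 12.6 CPM at 14 weeks, and at the other ages it lay between 0 and 0.190 CPM. mt-Co3 had at most 3 counts in every 4-week sample and was at 15.1 and 9.51 CPM at 14 weeks, at least 303-fold higher than a floor of 3 counts. mt-Atp6 rose by 6.92 ± 1.44 on the log2 scale (SE, adjusted p = 0.0205). Sumo2, a small protein modifier with 26.1% of its words shared, was at 8.37, 7.60 and 5.87 CPM at 4 weeks and 79.4 and 68.8 CPM at 14 weeks and rose by 3.35 ± 0.35 on the log2 scale (SE, adjusted p = 0.000348). At the other ages Sumo2 lay between 4.36 and 8.85 CPM and mt-Co3 between 0 and 1.39 CPM, so the 14-week samples stood above all others in these genes. The assignment of their reads is uncertain.

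The 10 largest falls by the same rule are all of genes known to be expressed by macrophages. Csf1r, the receptor that macrophages need to survive, was at 75.2, 130.03 and 77.1 CPM at 4 weeks and 6.25 and 8.398 CPM at 14 weeks and fell by 3.68 ± 0.42 on the log2 scale (SE, adjusted p = 0.000623). F13a1, coagulation factor XIII A of tissue macrophages, was at 43.7, 105 and 116 CPM at 4 weeks and 5.38 and 4.65 CPM at 14 weeks and fell by 4.13 ± 0.53 on the log2 scale (SE, adjusted p = 0.00128). The 3 chains of complement C1q fell together, C1qa from 76.4 ± 6.49 to 4.60 ± 0.773 CPM (mean ± SD, n = 3 and n = 2; log2 fold change -4.05, adjusted p = 0.000348), C1qb from 59.1 ± 18.0 to 3.42 ± 2.38 CPM (log2 fold change -4.11, adjusted p = 0.00444) and C1qc from 81.0 ± 24.2 to 3.79 ± 2.95 CPM (log2 fold change -4.41, adjusted p = 0.0115). The complement receptors C3ar1 (log2 fold change -4.44, adjusted p = 0.0263) and C5ar1 (log2 fold change -3.91, adjusted p = 0.00487), the Fc receptor Fcgr3 (log2 fold change -3.65, adjusted p = 0.01), the haematopoietic actin regulator Nckap1l (log2 fold change -3.92, adjusted p = 0.0384) and the carbonyl reductase Cbr2 (log2 fold change -5.72, adjusted p = 0.0478) were the others. Cbr2, Nckap1l and C3ar1 were called in none of the fits with a sample left out, and C1qc, C1qb, C5ar1 and Fcgr3 in 3 or 4 of the 5. Fcgr3 and Cbr2 share 9.43% and 12.4% of their words with other genes.

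Of 14 macrophage and leukocyte markers tested, 6 fell and none rose (median log2 fold change -2.56, against 0.00 over all genes tested). Their summed level lay between 393 and 683 CPM at 4 weeks and between 77.7 and 96.4 at 14 weeks, so the ranges were well separated. Lyz2 (lysozyme) was at 73.2, 157 and 118 CPM at 4 weeks and 13.1 and 18.1 CPM at 14 weeks and Mrc1 (the mannose receptor) at 39.5, 95.1 and 83.7 CPM at 4 weeks and 10.2 and 6.55 CPM at 14 weeks, where Lyz2 fell by 2.90 and Mrc1 fell by 3.12 (adjusted p = 0.00962 and 0.00118). Among the markers not called, Ptprc, the pan-leukocyte CD45, was at 7.08, 5.14 and 12.9 CPM at 4 weeks and 3.29 and 3.15 CPM at 14 weeks. Without replicate 4 of 14 weeks 3 of the markers fell, and without replicate 6 it was 5.

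The other cell types gave few calls. Of 13 smooth muscle and pericyte markers Myh11, smooth muscle myosin heavy chain, rose, at 10.7, 4.4999 and 28.6 CPM at 4 weeks and 110.2 and 81.9 CPM at 14 weeks (log2 fold change 2.72 ± 0.66 (SE), adjusted p = 0.0404), and it was called neither without a 14-week sample nor without replicate 1 or 2 of 4 weeks. DESeq2 gave 4 higher. Of the 13 markers 12 had higher fitted levels at 14 weeks (median log2 fold change 1.34). At an unadjusted p under 0.05 in edgeR 7 of them were higher and 1 lower. No member passed the test among 14 endothelial, 17 cardiomyocyte, 5 red cell, 7 glial, 7 epicardial and mesothelial and 3 adipocyte markers (edgeR). At an unadjusted p under 0.05, 1 cardiomyocyte, 2 glial and 1 adipocyte marker were higher and 2 cardiomyocyte markers lower, and DESeq2 called 1 cardiomyocyte marker, lower. Of the 14 endothelial markers 12 had higher fitted levels at 14 weeks (median log2 fold change 0.54). Without replicate 3 of 4 weeks their median was 1.68. The cardiomyocyte markers summed between 462 and 551 CPM at 4 weeks and between 449 and 518 at 14 weeks, and the smooth muscle markers between 442 and 588 CPM at 4 weeks and between 743 and 902 at 14 weeks. The part of these cells in the results below was not tested.

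**Figure D3:**
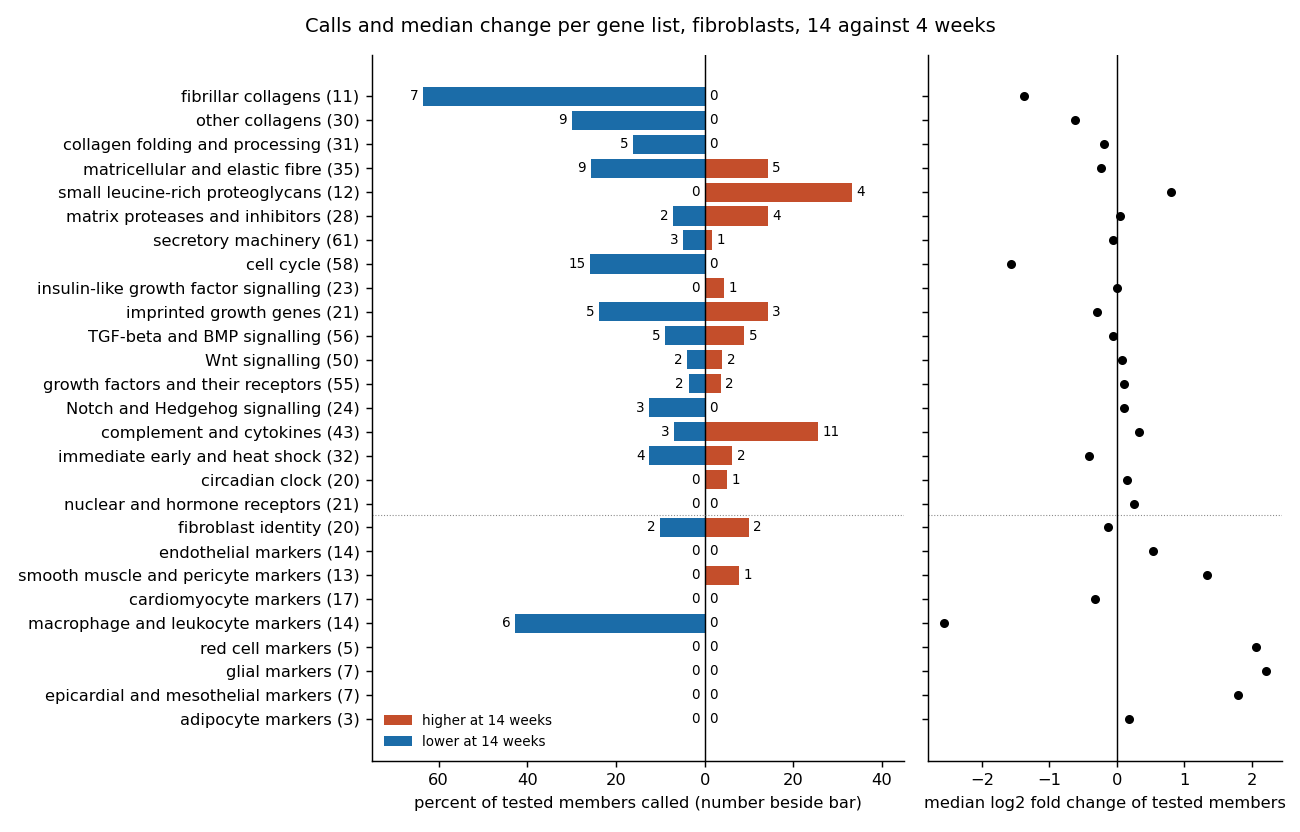
Left, percent of the tested members of each gene list called higher (red) or lower (blue) at 14 weeks, with the number of genes beside each bar and the number tested in brackets. Right, median log2 fold change of the tested members, with genes at or under 3 counts at an age set to their bound; lists under the dotted line are cell type markers. Fibrillar collagens (7 of 11 lower), cell cycle genes (15 of 58 lower) and macrophage markers (6 of 14 lower) lie to the left, and small leucine-rich proteoglycans (4 of 12 higher) and complement and cytokine genes (11 of 43 higher) to the right.

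Fibrillar collagens form the load-bearing fibrils of the heart, and 7 of the 11 genes fell while none rose (median log2 fold change -1.37). Col3a1 (type III collagen; chr1:45311538-45349706, plus strand, GRCm38) was at 21243, 22509.7 and 19436 CPM at 4 weeks and 6427 and 6177 CPM at 14 weeks, and it fell by 1.74 ± 0.26 on the log2 scale (SE, adjusted p = 0.00369). Col1a1 and Col1a2, the chains of type I collagen, were at 12104, 12543 and 10502 CPM at 4 weeks and 4363 and 4519.7 CPM at 14 weeks and at 8808, 9007 and 7792 CPM at 4 weeks and 3994 and 4121 CPM at 14 weeks. They fell by 1.40 ± 0.24 and by 1.07 ± 0.19 (adjusted p = 0.00714 and 0.0098), which left the 14-week samples well under the 4-week samples for every chain of types I and III. All 3 chains of type V collagen, which sets fibril diameter, fell as well: Col5a1 from 5320.1 ± 288 to 1806 ± 28.7 CPM (log2 fold change -1.56, adjusted p = 0.00128), Col5a2 from 1559.8 ± 6.01 to 704 ± 0.392 CPM (log2 fold change -1.15, adjusted p = 0.00394) and Col5a3 from 1522 ± 177 to 560.0 ± 32.0 CPM (log2 fold change -1.44, adjusted p = 0.000641). Col11a1, a minor fibril collagen of cartilage and the young heart, fell by 1.67 ± 0.33 on the log2 scale (SE, adjusted p = 0.0147) from 9.71 ± 2.57 CPM.

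Together the fibrillar collagens took 5.16, 5.36 and 4.56% of all counts at 4 weeks and 1.89 and 1.87% at 14 weeks, so the ages did not overlap and the samples within an age lay close together. Shares did not overlap in other lists either, such as Wnt genes, at 0.290, 0.290 and 0.271% at 4 weeks and 0.307 and 0.299% at 14 weeks. With GC and length offsets 5 of the 11 fibrillar collagens fell, at a median of -0.99, and Col3a1 changed by -1.65 (adjusted p = 0.0068). Neither chain of type I collagen was called with the offsets, Col1a1 at -0.99 (adjusted p = 0.0563) and Col1a2 at -0.81 (adjusted p = 0.0555). Without replicate 4 of 14 weeks 3 of the 11 fell and without replicate 6 it was 2, whereas 7 or 8 fell with a 4-week sample left out. At the other ages Col3a1 was at 24106 ± 3016 CPM in neonates, 12813 ± 3565 at 1 year and 4260.4 ± 1934 at 18 months (SD, n = 3, 2 and 2).

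Among 30 other collagens 9 fell and none rose (median -0.62). Col15a1, a collagen of the basement membrane zone, was at 6917, 7098 and 5479 CPM at 4 weeks and 3772 and 3624 CPM at 14 weeks and fell by 0.81 ± 0.17 on the log2 scale (SE, adjusted p = 0.0184). Col14a1 and Col16a1 lie on the surface of fibrils and went from 1369 ± 151 to 724 ± 47.0 CPM (log2 fold change -0.92, adjusted p = 0.0223) and from 299 ± 10.1 to 145 ± 9.73 CPM (log2 fold change -1.04, adjusted p = 0.0179). Col26a1 fell by 2.10 ± 0.53 on the log2 scale (SE, adjusted p = 0.0465). The chains Col4a1, Col4a2, Col6a1, Col6a2 and Col18a1, of basement membranes and of microfibrils, were the other genes that fell. With the GC and length offsets only 1 of the 30 fell, and without replicate 4 or replicate 6 of 14 weeks it was 1 and 0. Without replicate 1 or 2 of 4 weeks it was 2.

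Of 31 genes that fold, cleave and crosslink collagen 5 fell and none rose (median -0.19). Serpinh1 (HSP47), the collagen chaperone of the endoplasmic reticulum, was at 1673, 1976 and 1585 CPM at 4 weeks and 946 and 890.4 CPM at 14 weeks and fell by 0.93 ± 0.20 on the log2 scale (SE, adjusted p = 0.0253). Bmp1 and Adamts2, which remove the C- and N-terminal propeptides, went from 751 ± 12.4 to 452 ± 11.7 CPM (log2 fold change -0.73, adjusted p = 0.0136) and from 1355 ± 76.2 to 752 ± 12.1 CPM (log2 fold change -0.85, adjusted p = 0.0231). Loxl2, a lysyl oxidase that crosslinks collagen, fell by 0.98 ± 0.22 on the log2 scale (SE, adjusted p = 0.026), and it shares 44.8% of its words with another gene. P3h3, a prolyl hydroxylase, was the fifth. At 1 year and 18 months mean Serpinh1 was 2076 and 1500 CPM, above its 14-week level. Mean Loxl2 was 351 and 235 CPM at these ages, not above it. Loxl1, with the highest CPM of the list, was at 2034, 1950.2 and 1452 CPM at 4 weeks and 1023 and 1120.4 CPM at 14 weeks and did not pass the test (log2 fold change -0.76, adjusted p = 0.0595). With the offsets 1 of the 31 was called, and without replicate 4 or 6 of 14 weeks none was. Without replicate 1 or 2 of 4 weeks 1 was called and without replicate 3 it was 8, while DESeq2 gave 9.

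The general secretory machinery gave few calls, as 3 of 61 genes fell and 1 rose (median -0.07), shares near those of all genes. None of 20 translocation genes was called by edgeR (1 higher and 2 lower at an unadjusted p under 0.05, 0 and 0 by DESeq2). Sdf2l1 (an endoplasmic reticulum chaperone cofactor; log2 fold change -1.81, adjusted p = 0.0402), Kdelr3 (a retrieval receptor; log2 fold change -0.99, adjusted p = 0.018) and Tmed9 (a cargo receptor of COPII vesicles; log2 fold change -0.65, adjusted p = 0.0311) fell. Tmed2, of the same cargo receptor family, was at 46.8, 42.1 and 28.6 CPM at 4 weeks and 115 and 116 CPM at 14 weeks and rose by 1.56 ± 0.21 on the log2 scale (SE, adjusted p = 0.00152), with 26.9% of its words shared with other genes. Calr, the chaperone calreticulin, was at 947, 1112 and 1022 CPM at 4 weeks and 729.6 and 708 CPM at 14 weeks (log2 fold change -0.51, adjusted p = 0.364). Without either 14-week sample, or without replicate 1 or 2 of 4 weeks, no lower gene was called, and with only the 2 ages in the fit 1 was.

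Elastic fibre and matricellular genes were called in both directions. Of 13 elastic fibre genes 5 fell and 1 rose, and of 22 matricellular genes 4 fell and 4 rose, where the median over both was -0.23. Eln (elastin; chr5:134702593-134747323, minus strand, GRCm38) was at 4547, 4305 and 4142 CPM at 4 weeks and 774 and 896 CPM at 14 weeks, and it fell by 2.38 ± 0.26 on the log2 scale (SE, adjusted p = 0.000492), a 5.19-fold drop. Fbn2, a fibrillin of growing tissue, was at 81.2, 73.3 and 41.2 CPM at 4 weeks and 14.7 and 17.5 CPM at 14 weeks and fell by 2.02 ± 0.33 on the log2 scale (SE, adjusted p = 0.00593). Fbn1, Mfap2 and Emilin1, which build the microfibril scaffold around elastin, also fell. Efemp1 (fibulin-3) was the elastic fibre gene that rose, from 47.8 ± 5.63 to 134 ± 2.53 CPM (log2 fold change 1.49, adjusted p = 0.0437).

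Among matricellular genes, Sparc, a collagen-binding glycoprotein, was at 6961, 7213 and 6739.9 CPM at 4 weeks and 3491 and 3243 CPM at 14 weeks and fell by 1.05 ± 0.19 on the log2 scale (SE, adjusted p = 0.00962). Nov (CCN3) went from 72.4 ± 11.1 to 31.9 ± 4.65 CPM (log2 fold change -1.18, adjusted p = 0.0214), and Fn1 (fibronectin) and Thbs1 (thrombospondin 1) fell too. In the other direction, Sparcl1, a relative of Sparc, was at 1429, 1482 and 1538 CPM at 4 weeks and 2716 and 2889 CPM at 14 weeks and rose by 0.92 ± 0.12 on the log2 scale (SE, adjusted p = 0.0015). Wisp2 (CCN5) went from 34.1 ± 5.76 to 84.5 ± 11.2 CPM (log2 fold change 1.31, adjusted p = 0.00508) and Smoc1, a calcium-binding matrix protein, from 5.02 ± 2.74 to 21.6 ± 7.29 CPM (log2 fold change 2.11, adjusted p = 0.0344). Spp1 (osteopontin) had no counts in any 4-week sample and was at 1.54 and 0.505 CPM at 14 weeks, at least 25.2-fold higher than a floor of 3 counts. Of the whole list, 1 gene fell without replicate 4 of 14 weeks, 1 without replicate 6, 4 without replicate 1 of 4 weeks and 3 without its replicate 2, and with GC and length offsets 4 of 30 fell and 3 rose. Rises numbered 1 without replicate 6 of 14 weeks, 3 without replicate 1 of 4 weeks and 2 without any other sample.

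Small leucine-rich proteoglycans coat collagen fibrils and bind growth factors, and here 4 of 12 rose and none fell (median 0.80). Dcn (decorin; chr10:97479609-97518143, plus strand, GRCm38) was at 7046, 7729 and 5914 CPM at 4 weeks and 11199 and 12180.4 CPM at 14 weeks and rose by 0.76 ± 0.15 on the log2 scale (SE, adjusted p = 0.015). Fmod (fibromodulin) was at 23.4, 16.4 and 15.7 CPM at 4 weeks and 117 and 69.1 CPM at 14 weeks and rose by 2.33 ± 0.33 on the log2 scale (SE, adjusted p = 0.0026). Both were higher in each 14-week sample than in any 4-week sample, as were all 317 genes called higher. Ogn (osteoglycin) went from 571 ± 109 to 1094 ± 53.7 CPM (log2 fold change 0.94, adjusted p = 0.0138) and Ecm2 from 212 ± 39.3 to 389 ± 20.7 CPM (log2 fold change 0.88, adjusted p = 0.00849). Their GC content is low, 37.4% for Dcn, 36.3% for Ogn and 39.1% for Ecm2, and 3 of the 4 rises were not called with the offsets, under which Dcn changed by 0.42 (adjusted p = 0.335), Ogn by 0.47 (adjusted p = 0.432) and Ecm2 by 0.61 (adjusted p = 0.0989). Fmod, at 2.45 (adjusted p = 0.00225), was still called, and Prelp, not called above, came to 0.67 (adjusted p = 0.0484). Without either 14-week sample 1 of the 12 was called.

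Of 19 matrix proteases 2 fell and 1 rose, and of 9 inhibitors 3 rose and none fell. The falls were Adamts4, which cleaves large proteoglycans, at 148, 120.1 and 323 CPM at 4 weeks and 24.1 and 33.7 CPM at 14 weeks, and Adamts12, at 212, 273 and 217 CPM at 4 weeks and 73.1 and 51.2 CPM at 14 weeks. Adamts4 fell by 2.77 ± 0.40 on the log2 scale (SE, adjusted p = 0.00291) and Adamts12 fell by 1.91 ± 0.26 on the log2 scale (SE, adjusted p = 0.00209), and both were called with each of the 5 samples left out. Means at 1 year and 18 months were 273 and 500 CPM for Adamts4 and 54.7 and 31.1 CPM for Adamts12. Mmp3 (stromelysin 1) went from 25.3 ± 11.2 to 79.8 ± 9.92 CPM (log2 fold change 1.66, adjusted p = 0.0244), and 5.47% of its words are shared. Timp3, a matrix-bound inhibitor of metalloproteinases, was at 892, 1002 and 977 CPM at 4 weeks and 2178 and 1799.5 CPM at 14 weeks and rose by 1.06 ± 0.16 on the log2 scale (SE, adjusted p = 0.00369). The serine protease inhibitors Serping1 (C1 inhibitor) and Serpine2 (protease nexin 1) went from 1699.8 ± 111 to 2988 ± 462 CPM (log2 fold change 0.81, adjusted p = 0.0084) and from 201 ± 23.9 to 337 ± 17.4 CPM (log2 fold change 0.75, adjusted p = 0.0247). Without either 14-week sample 1 gene of the list rose.

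Complement and cytokine genes held the most rises of the 18 pathway lists by number, 11 of 43 with 3 falls (median 0.33). A larger share rose among small leucine-rich proteoglycans, 4 of 12. C3, the central complement protein (chr17:57203970-57228136, minus strand, GRCm38), was at 1017, 1052 and 1072 CPM at 4 weeks and 4714 and 6299 CPM at 14 weeks, and it rose by 2.39 ± 0.35 on the log2 scale (SE, adjusted p = 0.00312). C7, a late component of the membrane attack complex, went from 118 ± 16.4 to 502 ± 139 CPM (log2 fold change 2.10, adjusted p = 0.0258). C1s1 and C1ra, the proteases that start the classical pathway, were at 162, 162 and 147 CPM at 4 weeks and 471 and 587 CPM at 14 weeks and at 159, 136 and 123 CPM at 4 weeks and 403 and 476 CPM at 14 weeks, and rose by 1.75 and 1.66 (adjusted p = 0.00265 and 0.000638). C4b, a substrate of the C1s protease, went from 97.9 ± 4.67 to 326 ± 61.2 CPM (log2 fold change 1.73, adjusted p = 0.00353). Proteases and substrates of the cascade were thus among the rises, while the C1q chain C1qa fell with the macrophage genes above.

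Among secreted chemokines, Cxcl14 was at 66.0, 63.6 and 74.9 CPM at 4 weeks and 272 and 264 CPM at 14 weeks and rose by 1.98 ± 0.15 on the log2 scale (SE, adjusted p = 4.04e-05). Ccl11 was at 1.31, 8.10 and 9.18 CPM at 4 weeks and 74.5 and 111 CPM at 14 weeks and rose by 3.90 ± 0.59 on the log2 scale (SE, adjusted p = 0.00369). Il33, an alarmin cytokine kept in the nucleus of stromal cells, went from 31.1 ± 7.26 to 105 ± 5.93 CPM (log2 fold change 1.75, adjusted p = 0.00118), and Cx3cl1 and the oncostatin M receptor Osmr also rose. Cxcl2 and Cxcl10, inducible chemokines for neutrophils and T cells, fell, from 29.2 ± 11.0 to 5.42 ± 1.07 CPM (log2 fold change -2.43, adjusted p = 0.0388) and from 33.4 ± 21.1 to 7.002 ± 1.66 CPM (log2 fold change -2.25, adjusted p = 0.0329), and Cxcl10 was at 34.0, 11.9 and 54.1 CPM at 4 weeks and 8.17 and 5.83 CPM at 14 weeks. The list took 0.564, 0.554 and 0.599% of all counts at 4 weeks and 1.44 and 1.72% at 14 weeks. Between 9 and 11 of its members rose with any of the 5 samples left out, and 11 with GC and length offsets. The 3 falls became 1 or 2 with any sample left out, and Cxcl2 and Cxcl10 were each called in 1 of these 5 fits. Without genes of shared sequence 8 of 33 rose and 3 fell, and the median log2 fold change of the list was 0.00, against 0.33 with them.

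**Figure D4:**
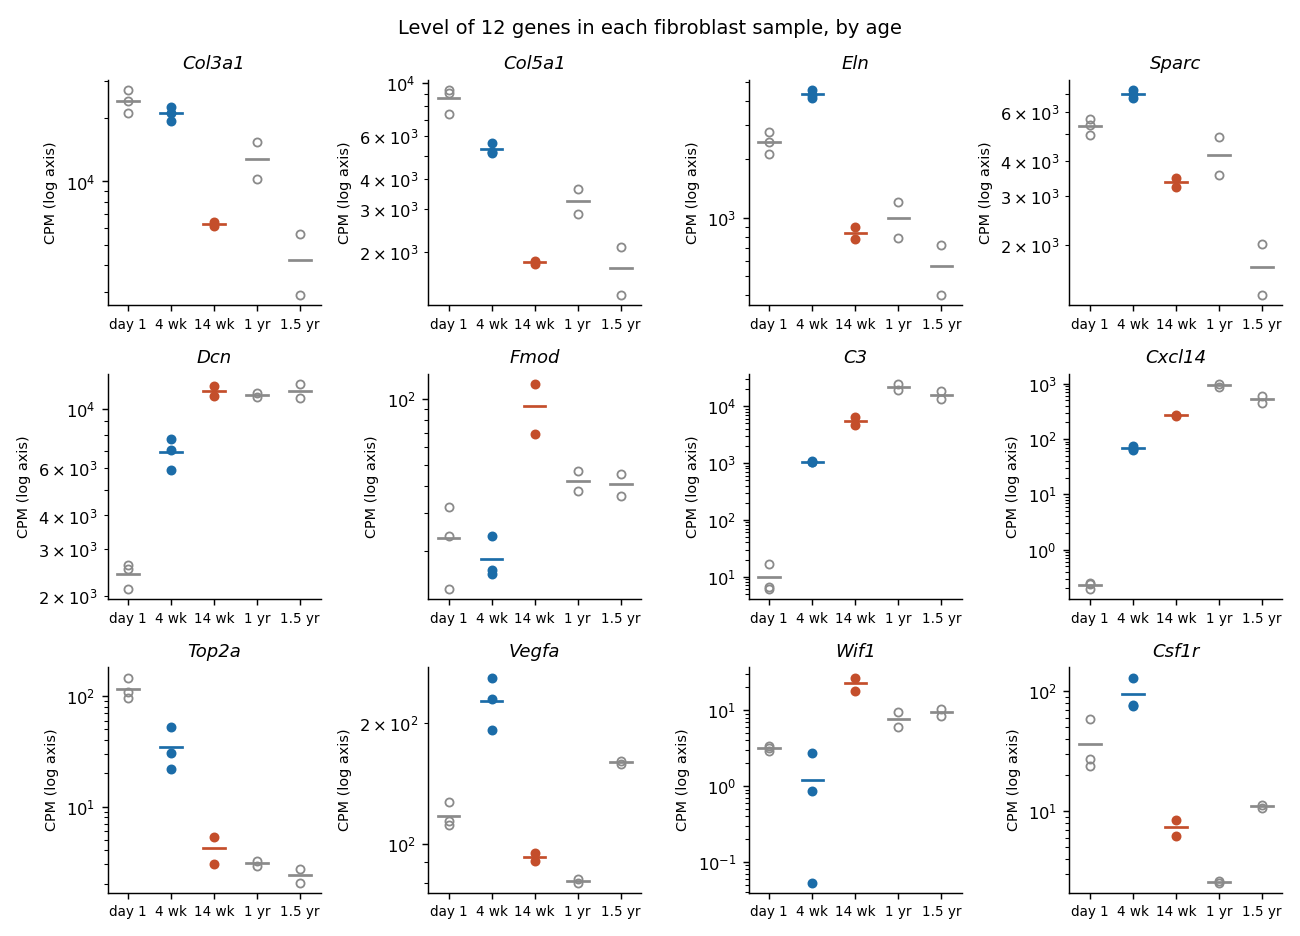
CPM (log axis) of 12 genes in each fibroblast sample at 5 ages; filled blue points are 4 weeks, filled red points 14 weeks, open points the other ages and lines the means. Col3a1, Col5a1, Eln, Sparc, Top2a, Vegfa and Csf1r are lower and Dcn, Fmod, C3, Cxcl14 and Wif1 higher in both 14-week samples than in every 4-week sample.

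Cell cycle genes held the most falls of the 18 pathway lists by number, 15 of 58. Larger shares fell among fibrillar collagens, 7 of 11, and other collagens, 9 of 30. Of 26 genes of mitosis 15 fell, and all 26 had lower fitted levels at 14 weeks, while none of 22 replication genes and 10 cell cycle inhibitors was called by edgeR. At an unadjusted p under 0.05, 3 replication genes were lower, and 1 inhibitor was lower and 1 higher, and DESeq2 called the same numbers lower. The median of the 58 genes was -1.57. Mki67 (Ki-67) was at 52.4, 21.6 and 69.3 CPM at 4 weeks and 6.46 and 6.45 CPM at 14 weeks and fell by 2.89 ± 0.45 on the log2 scale (SE, adjusted p = 0.00429). Top2a, the topoisomerase that untangles sister chromatids, was at 30.5, 21.8 and 52.3 CPM at 4 weeks and 5.33 and 3.04 CPM at 14 weeks and fell by 3.06 ± 0.39 on the log2 scale (SE, adjusted p = 0.00128). Kif11, a spindle motor, was at 10.3, 11.5 and 22.1 CPM at 4 weeks and 1.70 and 1.29 CPM at 14 weeks and fell by 3.29 ± 0.45 on the log2 scale (SE, adjusted p = 0.00209). Each 14-week sample lay under each 4-week sample in these genes, as in all 384 genes called lower, though the 4-week samples differed widely among themselves. Cdk1, the mitotic kinase (log2 fold change -4.17, adjusted p = 0.021), Birc5 (survivin; log2 fold change -4.34, adjusted p = 0.0368), Ube2c, of the anaphase promoting complex (log2 fold change -3.46, adjusted p = 0.0136), Prc1, of the midzone spindle (log2 fold change -2.54, adjusted p = 0.00452), and Foxm1, a transcription factor for mitotic genes (log2 fold change -1.92, adjusted p = 0.0162), fell likewise. Cdkn1a, the inhibitor p21 and the member of highest CPM, was at 222, 179 and 297 CPM at 4 weeks and 129 and 141 CPM at 14 weeks and did not pass (log2 fold change -0.79, adjusted p = 0.0638). Without replicate 4 of 14 weeks 6 genes of the list fell and without replicate 6 it was 2, and without replicate 1 of 4 weeks 10 genes of the list fell. With only the 2 ages in the fit 9 fell, and DESeq2 gave 23.

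Promoters of mitotic genes are known to carry CCAAT boxes, bound by the factor NF-Y, and the cell cycle genes homology region (CHR), a TTTGAA-like element bound by the MuvB complexes. In RefSeq windows of 250 bases before to 50 bases after the gene start (GRCm38.p6), which matched 12 of the 15 genes that fell, CCAAT on either strand (CCAAT or ATTGG) was found in 10 and TTTGAA on either strand (TTTGAA or TTCAAA) in 10, the same 10 promoters. Among 11642 genes tested with such a window, 37.9% held CCAAT, 1397 genes TTTGAA and 4.96% both. Among the 47 cell cycle genes tested with a window, fallen or not, 72.3% held CCAAT, 42.6% TTTGAA and 36.2% both. Neither motif contains the other. The promoters of 4 of these genes, those with the highest mean CPM at 4 weeks, are shown 5′ to 3′ on the strand of the gene, with both motifs in capitals.
Mki67 promoter (chr7:135716330-135716629, minus strand): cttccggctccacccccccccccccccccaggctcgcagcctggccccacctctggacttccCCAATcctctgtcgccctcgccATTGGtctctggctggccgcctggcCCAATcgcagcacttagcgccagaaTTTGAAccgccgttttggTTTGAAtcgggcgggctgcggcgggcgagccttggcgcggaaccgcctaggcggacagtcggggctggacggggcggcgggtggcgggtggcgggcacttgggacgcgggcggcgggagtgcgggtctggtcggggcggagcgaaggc
Top2a promoter (chr11:99024140-99024439, minus strand): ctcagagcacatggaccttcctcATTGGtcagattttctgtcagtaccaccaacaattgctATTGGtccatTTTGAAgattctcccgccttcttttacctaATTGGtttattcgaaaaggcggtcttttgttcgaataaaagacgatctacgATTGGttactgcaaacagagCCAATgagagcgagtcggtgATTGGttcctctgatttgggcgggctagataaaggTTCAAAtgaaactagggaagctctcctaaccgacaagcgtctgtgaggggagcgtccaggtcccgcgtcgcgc
Prc1 promoter (chr7:80294201-80294500, plus strand): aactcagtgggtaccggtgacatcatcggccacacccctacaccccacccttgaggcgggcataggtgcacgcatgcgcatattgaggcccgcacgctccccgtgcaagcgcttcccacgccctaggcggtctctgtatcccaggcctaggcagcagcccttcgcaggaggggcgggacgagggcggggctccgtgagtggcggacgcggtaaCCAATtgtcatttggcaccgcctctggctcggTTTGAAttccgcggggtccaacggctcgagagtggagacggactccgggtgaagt
Kif11 promoter (chr19:37376132-37376431, plus strand): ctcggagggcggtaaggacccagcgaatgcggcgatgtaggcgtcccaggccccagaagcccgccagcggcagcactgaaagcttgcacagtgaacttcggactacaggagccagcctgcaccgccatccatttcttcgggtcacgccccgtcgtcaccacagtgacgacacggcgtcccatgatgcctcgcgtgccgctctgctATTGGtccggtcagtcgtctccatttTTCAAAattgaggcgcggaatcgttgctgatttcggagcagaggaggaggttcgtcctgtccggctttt

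The window of Top2a held 6 CCAAT boxes and 2 TTTGAA elements and that of Mki67 3 and 2, whereas Prc1 and Kif11 held 1 of each. A match describes the letters only and is not a measured binding site.

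The lists of growth and signalling genes are to be read against 1.79% higher and 2.17% lower over all genes tested. In the insulin-like growth factor list 1 of 23 rose, Pappa, a protease that frees the ligand from its binding proteins, at 6.76, 8.18 and 2.26 CPM at 4 weeks and 18.3 and 29.1 CPM at 14 weeks (log2 fold change 2.05 ± 0.52 (SE), adjusted p = 0.0484), and no gene of the list rose with GC and length offsets or with any of the 5 samples left out. The ligand Igf1 was at 397, 431 and 286 CPM at 4 weeks and 279.8 and 283 CPM at 14 weeks, with an adjusted p of 0.306. Igfbp7, the binding protein of highest CPM, was at 1856, 2022 and 1803 CPM at 4 weeks and 1150.1 and 1250.4 CPM at 14 weeks, with an adjusted p of 0.0564. Imprinted genes are expressed from a single parental allele in some or all tissues, and many are known to be shut down as the body stops growing. Of 21 imprinted growth genes 5 fell and 3 rose (median -0.30), and expression by allele was not measured here. Zim1, a zinc finger gene, was at 4.30, 11.0 and 5.59 CPM at 4 weeks and 0.814 and 2.05 CPM at 14 weeks and fell by 2.27 ± 0.44 on the log2 scale (SE, adjusted p = 0.014). Mest, a hydrolase-like protein, was at 57.4, 46.5 and 72.4 CPM at 4 weeks and 26.6 and 17.0 CPM at 14 weeks and fell by 1.43 ± 0.28 on the log2 scale (SE, adjusted p = 0.0147). Plagl1, a growth-restraining transcription factor, went from 20.02 ± 1.65 to 9.21 ± 0.975 CPM (log2 fold change -1.12, adjusted p = 0.00779) and Slc38a4, an amino acid carrier, from 32.8 ± 7.93 to 16.0 ± 4.52 CPM (log2 fold change -1.03, adjusted p = 0.0431), and Peg3 fell as well. In neonates Zim1 was at 187 ± 44.8 and Mest at 1311 ± 261 CPM (SD, n = 3). Dcn, Nnat and Sgce rose, the last from 105 ± 11.5 to 159 ± 2.23 CPM (log2 fold change 0.59, adjusted p = 0.0452). Without replicate 4 of 14 weeks 2 imprinted genes fell, without replicate 6 it was 1, and without replicate 1 of 4 weeks 3. Imprinted rises numbered 0 and 1 without replicate 4 and 6 of 14 weeks and 2 with a 4-week sample left out, and Dcn is also among the proteoglycans above. With only the 2 ages in the fit 1 imprinted gene fell and 1 rose, and with GC and length offsets 5 fell and 1 rose.

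Of 56 TGF-β and BMP genes 5 rose and 5 fell (median -0.06). Among ligands, Bmp2 was at 52.0, 46.3 and 82.2 CPM at 4 weeks and 27.2 and 21.4 CPM at 14 weeks and fell by 1.31 ± 0.28 on the log2 scale (SE, adjusted p = 0.0219), while Gdf10 (BMP3b) was at 38.5, 36.3 and 41.0 CPM at 4 weeks and 87.8 and 104 CPM at 14 weeks and rose by 1.31 ± 0.28 on the log2 scale (SE, adjusted p = 0.023). The ligands were thus called in opposite directions. Of the receptors, Bmpr2, the type II receptor for BMPs, went from 179.7 ± 8.71 to 289.7 ± 0.300 CPM (log2 fold change 0.69, adjusted p = 0.00962). Ltbp1 and Ltbp2, matrix proteins of the latent TGF-β family, rose, Ltbp2 from 126 ± 9.04 to 228 ± 3.42 CPM (log2 fold change 0.86, adjusted p = 0.0419), as did the BMP modulator Bmper, from 36.6 ± 10.6 to 82.2 ± 2.91 CPM (log2 fold change 1.17, adjusted p = 0.0169). The secreted antagonists Fstl1, from 3605 ± 244 to 1950.5 ± 8.22 CPM (log2 fold change -0.89, adjusted p = 0.0394), and Nbl1, from 282 ± 11.3 to 155 ± 5.76 CPM (log2 fold change -0.86, adjusted p = 0.0305), fell. Inside the cell, the signal transducer Smad3 fell by 0.83 ± 0.18 on the log2 scale (SE, adjusted p = 0.026) and the BMP target Id3 also fell. Ltbp4, of highest CPM, was at 8282, 8497 and 7604 CPM at 4 weeks and 6668 and 7327 CPM at 14 weeks (log2 fold change -0.22, adjusted p = 0.453). With the offsets its direction turned, to 0.30 (adjusted p = 0.366). Without either 14-week sample no gene of the list was called; 2 rose and 1 fell without replicate 1 of 4 weeks, and 2 rose and 3 fell without its replicate 2. Falls numbered 2 with only the 2 ages in the fit and 2 with the offsets.

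Of 50 Wnt genes 2 rose and 2 fell (median 0.07), shares near those of all genes. Wif1, a secreted protein that traps Wnt ligands, was at 0.0536, 2.69 and 0.866 CPM at 4 weeks and 26.8 and 18.1 CPM at 14 weeks and rose by 4.22 ± 0.95 on the log2 scale (SE, adjusted p = 0.0273), and the ages lay far apart although the 4-week samples were uneven. Ror1, a receptor for Wnt5a, went from 17.2 ± 3.42 to 45.2 ± 4.63 CPM (log2 fold change 1.39, adjusted p = 0.00505), and the ligand Wnt5a itself from 53.9 ± 14.7 to 27.4 ± 0.620 CPM (log2 fold change -0.97, adjusted p = 0.0462). Fzd2, a Frizzled receptor, fell by 0.92 ± 0.21 on the log2 scale (SE, adjusted p = 0.0278). Sfrp1, a secreted Wnt antagonist and the member of highest CPM, was at 532, 509 and 442 CPM at 4 weeks and 570.5 and 621 CPM at 14 weeks (log2 fold change 0.27, adjusted p = 0.479). With GC and length offsets 2 genes of the list rose and none fell. Without replicate 3 of 4 weeks Wif1 did not pass (adjusted p = 0.0756), and without replicate 6 of 14 weeks no gene of the list was called. Without replicate 4 of 14 weeks 1 rose and none fell, and none fell without replicate 1 of 4 weeks or with only the 2 ages in the fit.

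Among 55 growth factors and receptors 2 rose and 2 fell (median 0.10), shares near those of all genes. Vegfa, the angiogenic factor, was at 259.8, 193 and 229 CPM at 4 weeks and 94.7 and 90.3 CPM at 14 weeks and fell by 1.30 ± 0.15 on the log2 scale (SE, adjusted p = 0.00061), and it was called with each of the 5 samples left out. Angpt1, a ligand of the endothelial receptor TIE2, was at 20.1, 16.1 and 10.1 CPM at 4 weeks and 43.1 and 41.3 CPM at 14 weeks and rose by 1.45 ± 0.25 on the log2 scale (SE, adjusted p = 0.00824). Gas6, a ligand of AXL, went from 369 ± 31.1 to 571 ± 31.3 CPM (log2 fold change 0.63, adjusted p = 0.0415), while Axl was at 2393, 2385 and 2385 CPM at 4 weeks and 1768 and 1912 CPM at 14 weeks (log2 fold change -0.38, adjusted p = 0.165). Ntrk3, a neurotrophin receptor, went from 48.0 ± 6.42 to 21.2 ± 1.17 CPM (log2 fold change -1.18, adjusted p = 0.0171). None of 11 fibroblast growth factor genes was called by edgeR (1 higher and 2 lower at an unadjusted p under 0.05, 1 and 1 by DESeq2), nor any of 7 platelet-derived growth factor genes (1 higher and 0 lower at an unadjusted p under 0.05, 0 and 0 by DESeq2). Without either 14-week sample no rise and 1 fall was called, and with a 4-week sample left out 1 rise; 1 gene fell without replicate 1 of 4 weeks. GC and length offsets gave 4 rises and 2 falls, and DESeq2 5 and 4.

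Of 11 Hedgehog genes 3 fell and none rose, and none of 13 Notch genes was called by edgeR (1 higher and 1 lower at an unadjusted p under 0.05, 0 and 1 by DESeq2). The median of both was 0.10. Gli1, a transcription factor and a known target of the pathway, was at 81.3, 84.5 and 145 CPM at 4 weeks and 37.0 and 50.3 CPM at 14 weeks and fell by 1.25 ± 0.27 on the log2 scale (SE, adjusted p = 0.0231). The co-receptors Cdon and Gas1 went from 178 ± 29.7 to 93.5 ± 7.54 CPM (log2 fold change -0.93, adjusted p = 0.0144) and from 1023 ± 179 to 578 ± 33.6 CPM (log2 fold change -0.82, adjusted p = 0.018). At 1 year and 18 months mean Gli1 was 51.4 and 47.6 CPM, Cdon 164 and 151 CPM and Gas1 1089 and 763 CPM. With the GC and length offsets 1 of the 3 was called, Cdon, at -0.95 (adjusted p = 0.0298), and without either 14-week sample none was. The offsets also called Notch3, a Notch receptor, higher, at 1.12 (adjusted p = 0.036). Without replicate 1 or 2 of 4 weeks 2 genes of both lists fell, and without replicate 3 there were 4 falls and 1 rise.

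Of 32 immediate early and heat shock genes 4 fell and 2 rose (median -0.42). Klf2 and Klf4, Krüppel-like factors, went from 1366 ± 116 to 754 ± 37.1 CPM (log2 fold change -0.86, adjusted p = 0.00599) and from 2999 ± 624 to 1711 ± 108 CPM (log2 fold change -0.81, adjusted p = 0.0455), Jund, an AP-1 subunit, from 2227 ± 282 to 1136 ± 39.4 CPM (log2 fold change -0.97, adjusted p = 0.00549) and Egr3 from 65.3 ± 35.1 to 23.2 ± 2.51 CPM (log2 fold change -1.49, adjusted p = 0.0368). Egr1, of highest CPM, was at 7469, 7025 and 7504 CPM at 4 weeks and 8633 and 9508 CPM at 14 weeks (log2 fold change 0.31, adjusted p = 0.423). The heat shock genes Hspa1a and Hspa1b, at 49.4, 50.4 and 65.7 CPM at 4 weeks and 149.7 and 387 CPM at 14 weeks and at 28.2, 36.9 and 74.5 CPM at 4 weeks and 179.9 and 579 CPM at 14 weeks, rose (log2 fold change 2.28, adjusted p = 0.0461 and log2 fold change 3.03, adjusted p = 0.0476), differed widely between the 14-week samples, and share 56.5% and 58.3% of their words with another gene. With the offsets no fall was called, and none was without either 14-week sample. No rise was called with any of the 5 samples left out. With only the 2 ages in the fit 2 fell and 3 rose, and DESeq2 gave 9 and 4.

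Nr1d1 (REV-ERBα), a repressor of the circadian clock, alone was called among 20 clock genes. It was at 147, 131 and 222 CPM at 4 weeks and 629 and 519.5 CPM at 14 weeks and rose by 1.79 ± 0.34 on the log2 scale (SE, adjusted p = 0.0129), which placed it above every fibroblast sample of the other ages, while Bhlhe40 was at 578, 536 and 799 CPM at 4 weeks and 509 and 448 CPM at 14 weeks (log2 fold change -0.41, adjusted p = 0.417). The labels give no time of day of collection. Without replicate 3 of 4 weeks 3 clock genes rose and 3 fell, and without any other sample of the 5 none was called. None of 21 nuclear and hormone receptor genes passed the test in edgeR (2 higher and 5 lower at an unadjusted p under 0.05, 0 and 1 by DESeq2; median 0.26), among them Nr3c1, the glucocorticoid receptor, at 261, 212 and 217 CPM at 4 weeks and 231 and 226 CPM at 14 weeks (log2 fold change -0.01, adjusted p = 1).

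Whole hearts of the same ages (3 samples each) were measured as well, and the study isolated its fibroblasts from such hearts, so the libraries of the tissues may share animals. There 132 of 17053 genes off X and Y were higher (0.774%) and 144 lower (0.844%), 1.62% together, and 61 and 412 when scaled by library size only, which moved the median of all genes by -0.24 on the log2 scale. Of the 384 genes that fell in fibroblasts 45 (11.7%) also fell in whole hearts and none rose, which is 31.2% of the heart's 144, and of the 317 that rose 10 (3.15%) also rose, which is 7.58% of the heart's 132. Matrix genes were among the shared falls: Col3a1 changed by -1.95 ± 0.22 (adjusted p = 0.0002) in whole hearts, Col1a1 by -1.54 ± 0.16 (adjusted p = 0.000143), Col5a1 by -1.64 ± 0.18 (adjusted p = 0.0002), Eln by -2.05 ± 0.22 (adjusted p = 0.000175) and Sparc by -1.82 ± 0.15 (adjusted p = 1.14e-05). Of the 11 fibrillar collagens 5 fell in whole hearts, and of the other collagens tested there 8 of 27. In whole hearts Cxcl14 rose by 2.69 ± 0.24 (adjusted p = 2.37e-05), C3 by 1.63 ± 0.24 (adjusted p = 0.0021) and Inmt by 2.56 ± 0.35 (adjusted p = 0.00114). Dcn changed in whole hearts by 0.01 ± 0.20 (adjusted p = 1), and the difference between the tissues, 0.75 ± 0.28 (adjusted p = 0.315), did not pass.

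An interaction term compared the change in fibroblasts with that in hearts and passed for 138 of 19381 genes (0.712%), 81 with a more positive and 57 with a more negative change in fibroblasts, and 217 and 35 when scaled by library size only (median of all genes 0.30). Of the fibroblast calls, 58 of the 317 rises and 36 of the 384 falls were among them. The fibroblast change is a part of the difference tested, so these counts are partly fixed by the fibroblast call. For Col3a1 the difference was 0.21 ± 0.36 (adjusted p = 1). Fmod and Sparcl1 rose more in fibroblasts, by 2.73 ± 0.60 (adjusted p = 0.0323) and 1.48 ± 0.21 (adjusted p = 0.000828) on the log2 scale, and so did C4b, by 1.69 ± 0.38 (adjusted p = 0.0353). The macrophage gene Csf1r differed by -3.23 ± 0.41 (adjusted p = 0.000279), with heart levels going from 68.8 ± 3.26 to 50.1 ± 8.62 CPM.

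**Figure D5:**
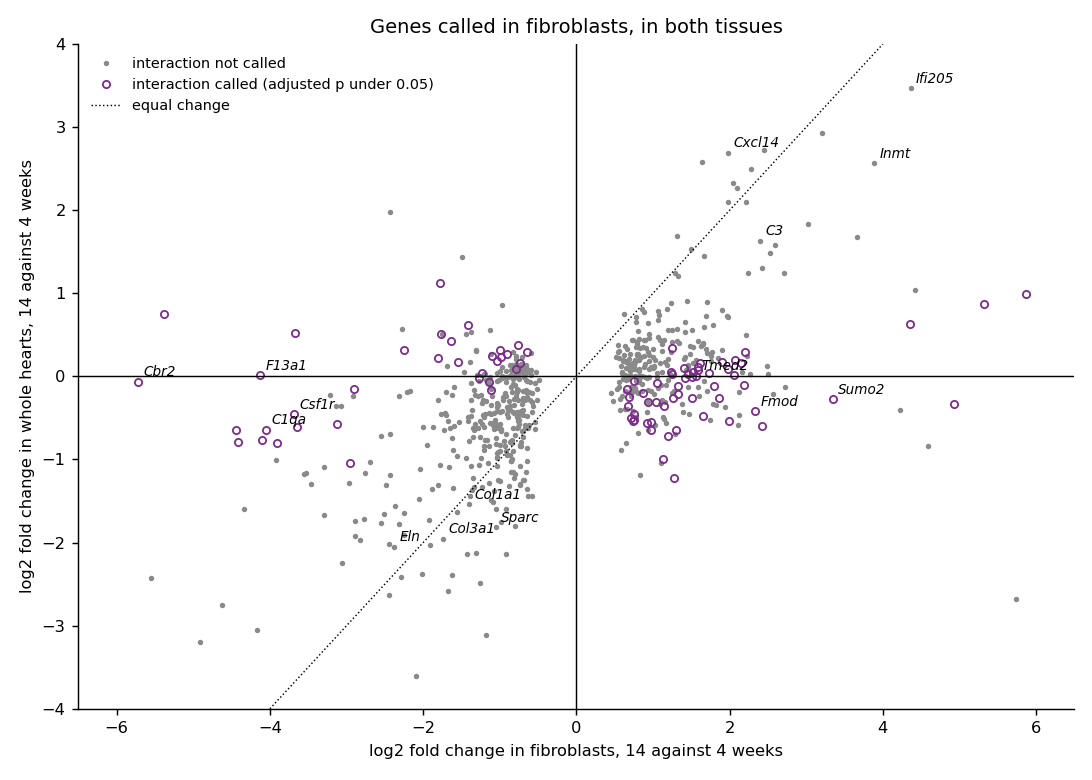
Log2 fold change at 14 against 4 weeks in whole hearts (vertical) against that in fibroblasts (horizontal) for 679 of the 701 genes called in fibroblasts; 22 lie outside the axes. Open purple circles mark genes whose change differed between the tissues (interaction, adjusted p under 0.05), and the dotted line marks equal change. Col3a1 and Eln lie near that line, and Sparc changed by -1.05 in fibroblasts and -1.82 in whole hearts. Csf1r, C1qa, F13a1 and Fmod changed by -0.46, -0.64, 0.01 and -0.42 in whole hearts, far from that line.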

How the data were processed

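RNA-Seq covered sorted cardiac fibroblasts and whole hearts. For the deposited tables the authors aligned reads with STAR 2.5.3a to mm10, per the submitters' processing notes, and deposited raw counts per gene, without normalization; the counting tool's strand setting is not given in the sources used here, so overlapping genes cannot be told apart. Groups follow the tissue and age that GEO's labels give. Total counts of the 12 fibroblast samples ranged from 54615898 to 76758831. No pair of samples of an age held identical counts, and pairs differed by at least 45.7 times the sampling noise (chi-square per degree of freedom).

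All fibroblast samples were fitted together in edgeR 4.0.16 (R 4.3.3) with age as the only factor, filterByExpr, TMM scaling and the quasi-likelihood F test, and p values were adjusted over all 18759 genes tested. Of these, 633 lie on X or Y and 415 could not be placed, and both sets were left out. A gene was called at an adjusted p under 0.05, and the SE of a fold change was derived from its F statistic. The common biological coefficient of variation was 87.9%. A fold against an age with at most 3 counts in every sample was computed against 3 counts per library and is a lower limit, for counting error only. Coordinates, GC content and 65-base words came from GENCODE M21 transcripts on GRCm38, in which 21807 symbols (95.4%) were found, and 249 more by synonym and 9 by symbol in RefSeq.

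Named genes are the 10 largest rises and 10 largest falls among called protein-coding genes without overlap and with at least 10 CPM at an age, and from each of 18 pathway lists at most 4 rises and 4 falls of at least 1 CPM and the member of highest CPM, with cell type markers, Xist and Ddx3y. Other list members named beside these (such as Col1a1, Mki67 and Igf1) were chosen after their values were seen. The members and lists were chosen with earlier results of these data known. Alternatives were DESeq2 1.42.0, other scalings and filters, at least 2-fold, only the 2 ages, and each sample left out; GC and length offsets and leaving out genes of shared sequence were added after the data were seen. Scripts were tested on simulated data. Exact permutation of 2 against 3 samples allows no p under 0.1, so shares of counts are given without a test.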

Additional observations from a re-analysis of the deposited data

Results flagged for a closer look

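For 17 of the genes described above, the log2 fold change between 4 and 14 weeks differed between fibroblasts and whole hearts by the interaction test (edgeR's quasi-likelihood F test over all samples, Benjamini-Hochberg adjustment). In 11 genes of macrophages the fall was larger in fibroblasts. Cbr2 changed by -5.72 in fibroblasts and -0.06 in whole hearts, a difference of -5.64 ± 1.15 (adjusted p = 0.0193). F13a1 changed by -4.13 in fibroblasts and 0.01 in whole hearts, a difference of -4.14 ± 0.60 (adjusted p = 0.000828). C3ar1 changed by -4.44 in fibroblasts and -0.65 in whole hearts, a difference of -3.78 ± 0.89 (adjusted p = 0.0458). C1qc changed by -4.41 in fibroblasts and -0.80 in whole hearts, a difference of -3.61 ± 0.73 (adjusted p = 0.0167), and edgeR also called it lower in whole hearts (adjusted p = 0.043). C1qa changed by -4.05 in fibroblasts and -0.64 in whole hearts, a difference of -3.41 ± 0.48 (adjusted p = 0.000747). C1qb changed by -4.11 in fibroblasts and -0.77 in whole hearts, a difference of -3.33 ± 0.63 (adjusted p = 0.0114). Csf1r changed by -3.68 in fibroblasts and -0.46 in whole hearts, a difference of -3.23 ± 0.41 (adjusted p = 0.000279). C5ar1 changed by -3.91 in fibroblasts and -0.81 in whole hearts, a difference of -3.11 ± 0.73 (adjusted p = 0.0483). Fcgr3 changed by -3.65 in fibroblasts and -0.61 in whole hearts, a difference of -3.05 ± 0.60 (adjusted p = 0.0149). Lyz2 changed by -2.90 in fibroblasts and -0.15 in whole hearts, a difference of -2.75 ± 0.52 (adjusted p = 0.011). Mrc1 changed by -3.12 in fibroblasts and -0.58 in whole hearts, a difference of -2.55 ± 0.45 (adjusted p = 0.00662). In the other 6 the rise was larger in fibroblasts. mt-Co2 changed by 8.29 in fibroblasts and 1.04 in whole hearts, a difference of 7.23 ± 1.64 (adjusted p = 0.0383). Sumo2 changed by 3.35 in fibroblasts and -0.27 in whole hearts, a difference of 3.61 ± 0.47 (adjusted p = 0.000343). Fmod changed by 2.33 in fibroblasts and -0.42 in whole hearts, a difference of 2.73 ± 0.60 (adjusted p = 0.0323). Tmed2 changed by 1.56 in fibroblasts and 0.01 in whole hearts, a difference of 1.55 ± 0.27 (adjusted p = 0.00662). Sparcl1 changed by 0.92 in fibroblasts and -0.56 in whole hearts, a difference of 1.48 ± 0.21 (adjusted p = 0.000828). C4b changed by 1.73 in fibroblasts and 0.04 in whole hearts, a difference of 1.69 ± 0.38 (adjusted p = 0.0353). Of these, mt-Co2, Sumo2 and Tmed2 share between 26.1% and 99.5% of their 65-base words with other genes. The direction of each difference is that of the fibroblast change minus the heart change, and the cause was not tested. All of these genes were called by their fibroblast change, so a larger change in fibroblasts is partly fixed by that call.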

How the results depend on the processing

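No paired analysis was possible because the fibroblast samples of the 2 ages share no replicate number. In whole hearts, with the replicate number as a block, 104 genes were higher and 108 lower; deviations of same-numbered samples correlated at between -0.0249 and 0.00456, so the pairing is not shown by the data.

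For fibroblasts, DESeq2 gave 589 higher and 900 lower genes, a change of at least 2-fold 186 and 212, and each sample left out in turn between 70 and 318 higher and between 49 and 374 lower; the low ends leave 1 sample at 14 weeks, which is then assumed to vary like the other ages. With GC and length offsets, added after the data were seen, 190 were lower, and with genes of shared sequence also left out 181 were higher and 131 lower. Other scalings, filters, the fit of the 2 ages alone and counts without X, Y and mitochondrial genes stayed within 1.5 times for the totals over all genes. With only the 2 ages in the fit, falls moved further in some lists, from 15 to 9 for cell cycle, 5 to 1 for imprinted, 5 to 2 for TGF-β and BMP, 4 to 2 for immediate early and heat shock, 3 to 1 for secretory and 2 to 0 for Wnt genes. In whole hearts, DESeq2 gave 418 higher and 371 lower, library size only 61 and 412, and each sample left out between 35 and 125 higher and 39 and 131 lower. For the difference between tissues, with the fibroblast change more positive and more negative, DESeq2 gave 319 and 361 genes, library size only 217 and 35, and each sample left out between 26 and 147 and between 13 and 77.

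Ltbp4 turned to 0.30 with the offsets and 0.32 with shared genes also left out. Nr3c1, at -0.0067, turned to 0.048 with library size only, 0.0097 with only the 2 ages, 0.028 without genes of shared sequence and 0.0013 without X, Y and mitochondrial genes, and lay between -0.063 and 0.095 with each sample left out. Neither gene was called. Of the 94 named and called genes, 20 were called with each sample left out. The shares of counts of fibrillar collagens and of complement and cytokine genes kept their direction with each sample left out and without X, Y and mitochondrial genes. Low counts limit genes at or under 3 counts at an age, 1491 at 4 weeks and 1255 at 14 weeks of those tested. The causes were not tested.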
